A study of Danio rerio with 18 samples.

Results

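The genes described here are the zebrafish collagen genes outside a named set of 11 bone and cartilage collagens. They were chosen by symbol from the deposited transcript tables: every gene named col, a number, a and a number was taken, and 11 genes of the bone and cartilage matrix (col1a1a, col1a1b, col1a2, col10a1a, col2a1a, col9a1a, col9a1b, col9a2, col9a3, col11a1a and col11a2) were left out. Of 50 such symbols among 25581 genes, 39 remained, and they fall into 9 collagen classes. Paralogs of the genes left out, such as col2a1b, col10a1b and col11a1b, are among the 39. The rule used names and no expression values.

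RNAseq was performed on pools of whole zebrafish. Wild-type fish, taken from sibling and cousin families, were compared with sox10-/- fish homozygous for the ci3020 allele, a deletion that reaches from the 5′UTR through the exon where coding begins and that leaves some transcription. There were 3 libraries of each genotype at 45 hours post-fertilization (hpf) and 3 of each at 4 days post-fertilization (dpf), each from a separate pool. The labels give 10 to 25 wild types or 10 to 15 mutants per pool at 45 hpf, and 10 to 15 wild types or 10 to 12 mutants at 4 dpf. A further 6 libraries are labelled 7 dpf, but all 25896 lines of their table repeat the 4 dpf table, so 12 distinct libraries were analysed and the later values are called those of the 4 dpf table. Whether they were measured at 4 or 7 dpf cannot be told from the tables, and stage cannot be told apart from table.

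Collagens are secreted or membrane-bound proteins built from trimers of α chains that share a triple helix. Fibrillar chains polymerise into the fibrils of dermis, fascia and notochord sheath, and the fibril-associated collagens with interrupted helices (FACITs) decorate those fibrils. Type IV chains form the sheet-like network of basement membranes, to which the multiplexins and the beaded filaments of type VI attach. In skin, transmembrane type XVII collagen of the hemidesmosome fastens basal keratinocytes to the basement membrane, and the anchoring fibrils of type VII fasten the basement membrane to the dermis. Sox10 is a transcription factor of the neural crest, the source of pigment cells and peripheral glia.

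Values are in TPM, a unit of transcript abundance. They were scaled for transcript length and to the total of each library, so that levels of different genes can be compared within a library. The summed TPM of the listed genes was 934603 to 953131 per library. The tables give no read numbers. The methods state an intended sequencing yield, but the reads obtained in each library are not known here, and the error of each value rests on the spread among 3 libraries. The mutated gene, sox10, was listed at 9.47, 14.02 and 11.7 TPM in wild types and 11.2, 9.14 and 6.61 TPM in mutants at 45 hpf, and at 7.33, 5.25 and 6.02 TPM against 5.77, 8.41 and 6.39 TPM in the 4 dpf table. These groups overlapped. A summed level of 5 pigment cell genes (mitfa, dct, tyrp1b, pnp4a and gch2) separated the genotypes as labelled, at 325 to 417 TPM in wild types against 165 to 247 TPM in mutants at 45 hpf, and 75.4 to 109.5 TPM against 21.1 to 46.6 TPM in the 4 dpf table.

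The members spanned more than 3 orders of magnitude in level. The most abundant was col2a1b, the other type II collagen gene of zebrafish, with a mean of 37.2 TPM over 12 libraries. It was followed by col16a1, a FACIT (22.1 TPM), by col4a5 of the basement membrane network (19.3 TPM), by col12a1a, a FACIT of fascia and fin (16.4 TPM), by the multiplexins col15a1b (15.7 TPM) and col18a1a, the precursor of endostatin (14.3 TPM), by the type V chain col5a3b and by col4a6 (both 12.5 TPM), by col5a1, the chain that nucleates type I fibrils (11.7 TPM), and by the von Willebrand domain collagen col28a2a (8.54 TPM) and the hemidesmosomal col17a1a (8.45 TPM). At the other end, col10a1b, col28a1b, col28a2b, col5a2b and col8a1b stayed under 1 TPM in all 12 libraries. At 45 hpf 27 of the 39 members reached 1 TPM in all 3 wild-type libraries and 23 did in all 3 mutant libraries. For the 4 dpf table these counts were 21 and 18.

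**Figure D1:**
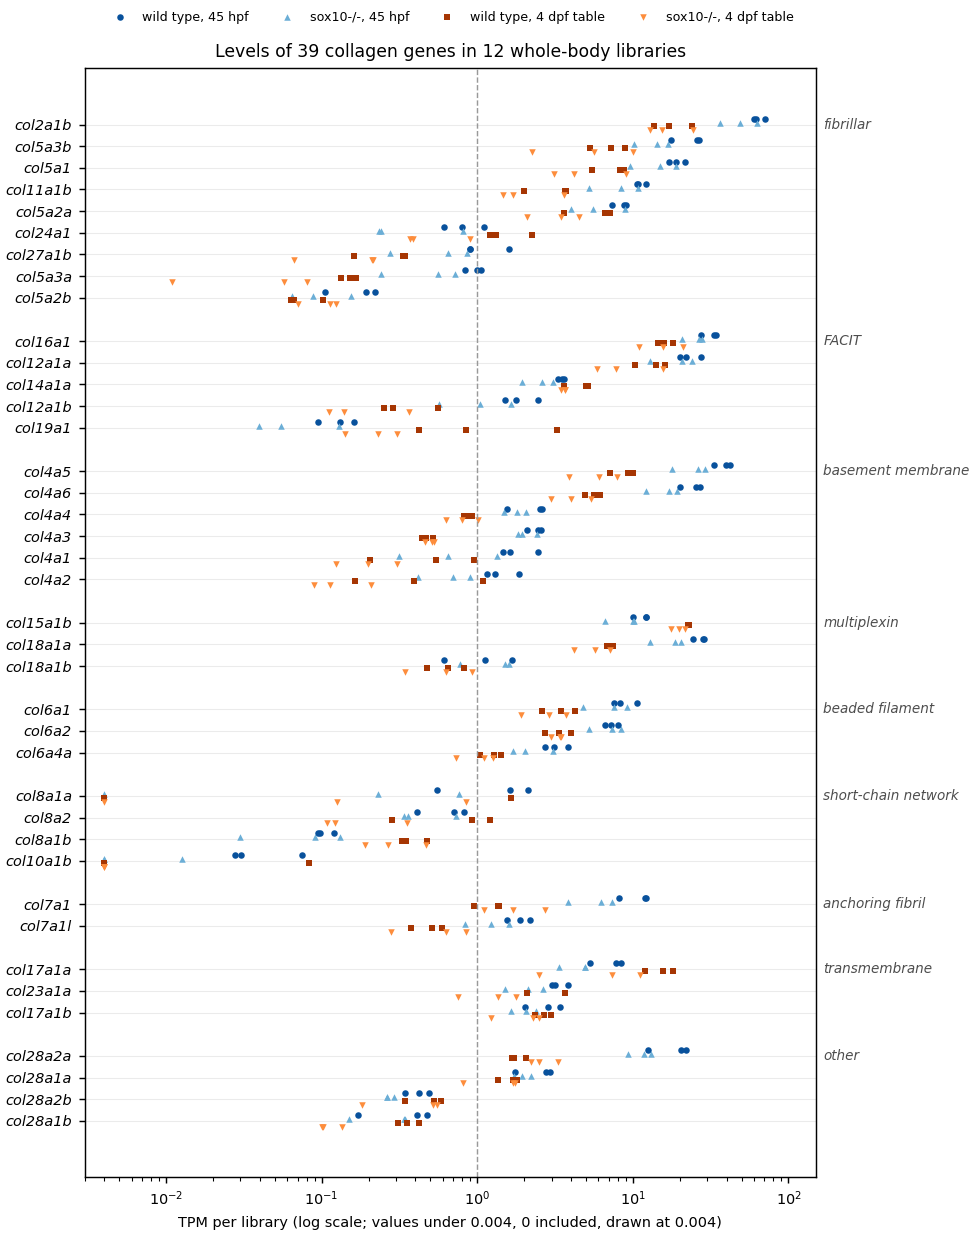
TPM of each of the 39 collagen genes in each of 12 libraries, on a log axis, grouped by collagen class and coloured by genotype and stage, with a dashed line at 1 TPM. The type IV pair col4a5 and col4a6 sits far to the left in the 4 dpf table, while col15a1b and col17a1a sit to the right of their 45 hpf wild-type values in the wild types of that table.

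Within classes, most of the signal came from 1 or 2 genes. Of the 6 type IV chains, col4a5 and col4a6 gave most of the TPM, whereas col4a1 and col4a2, the chains of the ubiquitous type IV network in vertebrates, reached at most 2.45 and 1.86 TPM. A RefSeq gene table of another assembly places col4a1 next to col4a2, col4a3 next to col4a4 and col4a5 next to col4a6, and no other members were neighbours. In the short-chain network class, which holds the vessel and cornea collagens of type VIII, the highest value of any member was 2.12 TPM. It belonged to col8a1a, which was listed at 2.12, 1.62 and 0.554 TPM in wild types at 45 hpf but at 0 in wild-type replicate 2 of the 4 dpf table and in mutant replicate 3 of each table, so it jumped between replicates of a group. For duplicated genes such as col17a1a and col17a1b, col5a3a and col5a3b or col28a2a and col28a2b, reads shared by the copies are divided by the quantification, and the split between them is uncertain to that degree.

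The first question was how the collagens differed between 45 hpf and the 4 dpf table in wild types. Most members were lower at the later stage. Of 29 members with at least 1 TPM in 3 of the 6 wild-type libraries, 20 fell and 3 rose (limma on log2(TPM + 1), called where the adjusted P did not exceed 0.05 and TPM + 1 changed by 25% or more), and 6 did not pass. Over all 18424 genes tested, 39.6% fell and 28.9% rose by the same rule. The median change of the 29 members was -0.93 on the log2 scale, against -0.17 over all tested genes. Without the filter, all 39 members entered, 22 fell and 3 rose, where 30.2% and 24.2% of all genes did. The 3 rises were then those of col15a1b, col17a1a and col8a1b, which was under 1 TPM in all 12 libraries. With the filter col24a1 stood in the place of col8a1b. Of the 20 members with at least 1 TPM in all 6 libraries, 13 fell and 2 rose. The share of all genes under that stricter filter was not computed, so these counts are a description only. In whole-body RNA, fewer cells of a type and less RNA per cell cannot be told apart.

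All 6 members of the basement membrane network were called lower. Only col4a5 and col4a6 reached 1 TPM in all 6 wild-type libraries. The chains col4a1, col4a2, col4a3 and col4a4 passed the filter through the 45 hpf libraries, where they were higher. Their place among the tested genes was thus tied to the direction of the change. With the filter dropped, all 6 were called lower too. The col4a5 chain was listed at 33.0, 39.4 and 41.9 TPM in wild types at 45 hpf and at 10.0, 7.17 and 9.35 TPM in the 4 dpf table. The change was -2.00 ± 0.16 (log2 of TPM + 1, standard error, n = 3 and 3; limma adjusted P = 1.87e-05). Its neighbour col4a6 went from 20.2, 26.8 and 25.3 TPM to 6.16, 4.94 and 5.61 TPM, a change of -1.93 ± 0.15. For both genes the stages lay far apart, with the lowest earlier library above the highest later library. The remaining chains fell less, by 1.19 for col4a3, 0.87 for col4a1, 0.77 for col4a4 and 0.69 for col4a2, from levels that were already low. The call for col4a2 was near the threshold (adjusted P = 0.028) and was lost without any of 4 single libraries, wild-type replicates 2 and 3 at 45 hpf and replicates 1 and 2 of the 4 dpf table.

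The largest falls of all were those of col28a2a and col7a1. Type XXVIII collagen is known in mouse from the basement membranes around peripheral nerve glia. Its gene col28a2a was listed at 12.5, 20.5 and 22.1 TPM at 45 hpf and at 1.71, 2.05 and 1.68 TPM in the 4 dpf table. The change was -2.75 ± 0.21, a 6.71-fold fall on the TPM + 1 scale (adjusted P = 1.86e-05). The anchoring fibril gene col7a1 was listed at 8.11, 12.0 and 12.2 TPM and then at 1.35, 0.953 and 1.39 TPM, a change of -2.38 ± 0.19. Its relative col7a1l fell by 0.94 from levels of 1.56 to 2.17 TPM. In all later wild types col7a1l was under 1 TPM, so it passed the filter only through the 45 hpf libraries, where it was higher. With the filter dropped it was called lower too.

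Among fibrillar genes 4 of 6 tested fell and col24a1 rose. The fall of col2a1b from 61.4, 70.1 and 59.9 TPM to 24.04, 13.8 and 17.1 TPM was the largest of the class at -1.78 ± 0.19. The minor fibril chains col11a1b and col5a3b fell by 1.59 and 1.57, and col5a1 fell by 1.27. The partner chain col5a2a had a change of -0.50 ± 0.23 that did not pass (adjusted P = 0.085). The type XXIV gene col24a1, known from developing bone and eye in mouse, rose from 0.796, 1.104 and 0.607 TPM to 1.33, 1.20 and 2.26 TPM, a change of 0.49 ± 0.19 (adjusted P = 0.0495). That call was lost when any library other than wild-type replicate 2 of the 4 dpf table was left out. It was also lost without the filter and with the replicate number as a block. The gene passed the filter through the later libraries, where it was higher.

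The multiplexins moved in opposite directions. The endostatin precursor gene col18a1a fell from 24.4, 28.2 and 28.5 TPM to 7.29, 6.83 and 7.41 TPM, a change of -1.78 ± 0.12. In the same pools col15a1b rose from 10.0, 12.2 and 12.2 TPM to 22.5, 22.999 and 23.02 TPM, a change of 0.94 ± 0.12 (adjusted P = 0.00024).

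Transmembrane collagens did not share the general fall. The hemidesmosomal gene col17a1a rose from 5.33, 7.76 and 8.34 TPM to 15.6, 12.0 and 18.2 TPM, a change of 1.00 ± 0.20 (adjusted P = 0.0030). Its paralog col17a1b was at 2.04, 3.38 and 2.85 TPM and then at 2.69, 2.36 and 2.97 TPM. For col17a1b the change was -0.02 ± 0.17 and for col23a1a it was -0.09 ± 0.20, and neither passed. The 2 skin anchors thus moved apart, with col17a1a higher and col7a1 lower in the later wild types.

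All 3 tested type VI genes, whose beaded filaments surround muscle fibres, fell: col6a1 by 1.14, col6a2 by 0.93 and col6a4a by 0.90. Of 4 tested FACITs 3 fell, col12a1b by 1.09, col16a1 by 0.93 and col12a1a by 0.74. In all later wild types col12a1b was under 1 TPM, so it passed the filter only through the 45 hpf libraries, where it was higher. With the filter dropped it was called lower too. For col14a1a the change was 0.32 ± 0.15 and did not pass (adjusted P = 0.10). After median-of-ratios rescaling of the libraries col14a1a counted among the rises, at 0.41. The fibril-associated gene col19a1 failed the filter and varied from 0.425 to 3.27 TPM among the 3 later wild-type libraries.

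**Figure D2:**
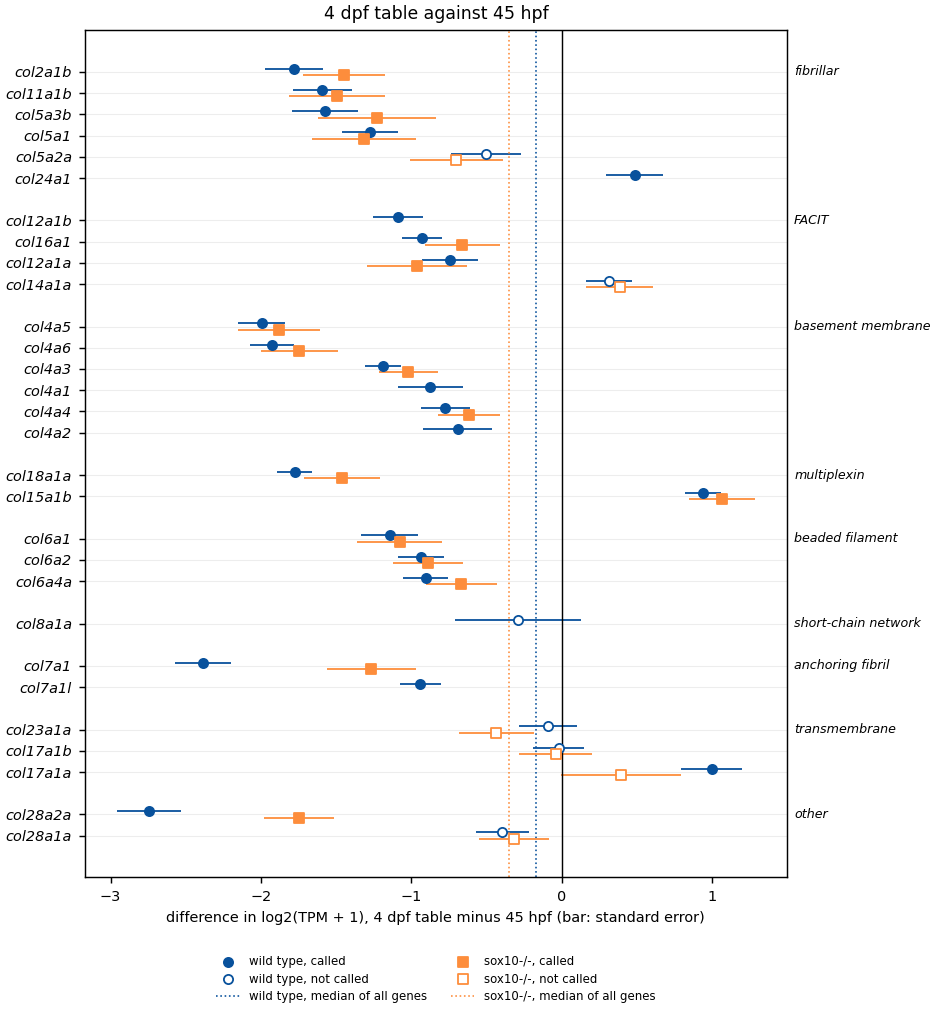
Difference in log2(TPM + 1) between the 4 dpf table and 45 hpf for each tested collagen gene, with its standard error, in wild types (circles) and sox10 mutants (squares), by class. Filled symbols passed the threshold, and dotted lines give the median of all tested genes at -0.17 in wild types and -0.35 in mutants. All type IV and type VI symbols are filled and lie to the left, and col15a1b is filled on the right in both genotypes. Apart from col4a5 and col4a6, the type IV genes shown passed the filter through the 45 hpf libraries, where they were higher.

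The sox10 mutants were compared between the tables in the same way, in libraries separate from the wild types. Of 23 members tested 16 fell and 1, col15a1b, rose, where 38.8% of all tested genes fell and 57.8% were called in either direction. All 16 had also fallen in wild types. In mutants too, col4a3 and col4a4 passed the filter through the 45 hpf libraries, where they were higher. Their place in the count was thus tied to the direction of the change. No fit without the filter was made for the mutants. The change of col4a5 was -1.88 ± 0.27, that of col15a1b was 1.07 ± 0.22, and that of col28a2a was -1.75 ± 0.23. For col17a1a the change in mutants was 0.40 ± 0.40 and did not pass (adjusted P = 0.41). Whether that change differed between genotypes is answered by the interaction below.

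Summed over all 39 members, the collagens made up 319, 407 and 377 TPM in wild types at 45 hpf and 319.5, 273 and 191 TPM in mutants. Later they made up 182, 136 and 177 TPM in wild types and 89.2, 169.95 and 125 TPM in mutants. At 45 hpf mutant replicate 1 lay at the lower edge of the wild-type range and mutant replicate 3 far below it. Among the later libraries mutant replicate 2 lay inside the wild-type range and replicate 1 was the lowest of all 12 libraries. After rescaling the 45 hpf sums did not overlap. Mutants were then at 287, 297 and 262 TPM and wild types at 317, 335 and 330 TPM. In the 4 dpf table rescaled mutants were at 127, 173 and 135 TPM and wild types at 146, 127 and 147 TPM. Mutant replicate 2 then lay above the wild-type range.

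**Figure D3:**
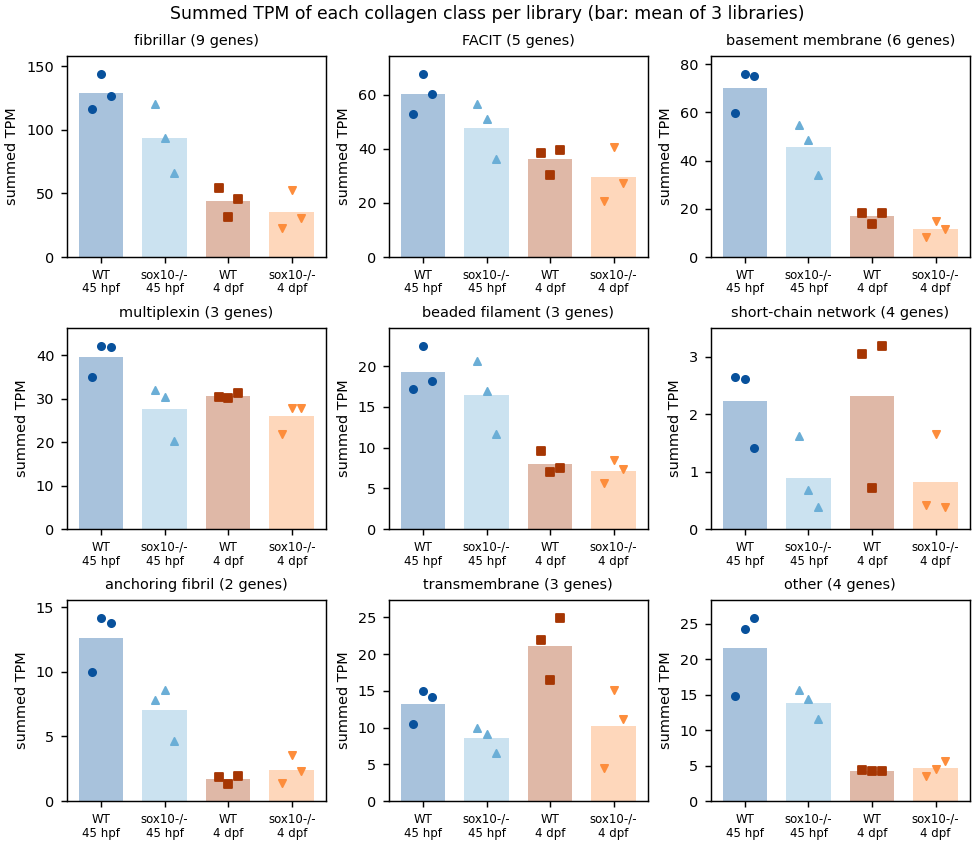
Summed TPM of each of 9 collagen classes, with 1 point per library and bars at the mean of 3 libraries, from 0. Basement membrane and anchoring fibril sums drop between the tables in both genotypes, and transmembrane sums are highest in wild types of the 4 dpf table, at 16.4 to 24.8 TPM.

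The second question was which collagens differed between sox10 mutants and wild types. Most genes of the whole table, not only collagens, were lower in mutants in TPM. The median difference of all tested genes was -0.25 on the log2 scale at 45 hpf and -0.33 in the 4 dpf table. Median-of-ratios rescaling moved these medians to 0.00 and 0.03, and the scaling factors ranged from 0.73 to 1.22 among the 45 hpf libraries and from 0.70 to 1.24 among those of the 4 dpf table. The lowest factors were those of mutant replicate 3 at 45 hpf and mutant replicate 1 of the 4 dpf table, the same libraries in which the summed collagens were lowest. Genotype differences are given in TPM as deposited, with the value after rescaling beside them.

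At 45 hpf 28 members were tested, and 0 passed in either direction. Over all 17043 genes 0.499% were called lower and 0.0587% higher. An unadjusted P under 0.05 was reached by 11 members that were lower and by 0 that were higher, where 20.2% of all tested genes were lower. The median difference of the members was -0.42 before and -0.18 after rescaling. Before rescaling 27 of 28 differences were negative, and after it 24 were. In 10 of the 28 tested members the highest mutant library was under the lowest wild-type library, which held for 23.7% of all tested genes. The mutants lay entirely above the wild types in 0 members, and the share of all genes that did so was not computed.

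The 11 members with an unadjusted P under 0.05 were singled out after their values were seen, and none of them passed after adjustment over all genes. The anchoring fibril gene col7a1 was at 6.25, 7.37 and 3.83 TPM in mutants against 8.11, 12.0 and 12.2 TPM in wild types, a difference of -0.80 ± 0.25 (log2, standard error, n = 3 and 3; limma adjusted P = 0.15). After rescaling its difference was -0.54. Mutant and wild-type libraries of col7a1 did not overlap. Of the type IV chains col4a5 was at 29.1, 26.3 and 17.8 TPM in mutants against 33.0, 39.4 and 41.9 TPM, a difference of -0.64 ± 0.20, or -0.35 after rescaling. The differences of col4a1, col4a6 and col4a2 were -0.71 ± 0.23, -0.57 ± 0.21 and -0.54 ± 0.19, and after rescaling they were -0.58, -0.28 and -0.40. Those 4 genes did not overlap between genotypes either, while col4a3 and col4a4 overlapped, with differences of -0.14 and -0.20 that became 0.064 and 0.00085 after rescaling. At 45 hpf col4a2 reached 1 TPM in the wild types only, so it passed the filter through the group where it was higher. Its place in the counts of lower and non-overlapping members was thus tied to the direction of the difference.

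The other members of this group were col5a3b at -0.72 ± 0.23, col18a1a at -0.63 ± 0.20, col28a2a at -0.63 ± 0.23, col17a1a at -0.58 ± 0.23, col23a1a at -0.50 ± 0.21 and col12a1b at -0.50 ± 0.23. After rescaling they were at -0.44, -0.34, -0.34, -0.33, -0.29 and -0.35, in the same order. For col5a3b mutants were at 16.9, 14.2 and 10.2 TPM and wild types at 17.5, 26.7 and 25.7 TPM. For col18a1a mutants were at 20.4, 18.8 and 12.96 TPM and wild types at 24.4, 28.2 and 28.5 TPM. At the other end of the list the type VI chain col6a2 was at 8.43, 7.38 and 5.25 TPM in mutants and 6.61, 8.02 and 7.22 TPM in wild types, a difference of -0.06 ± 0.21 that turned to 0.20 after rescaling. The only positive difference before rescaling was that of col18a1b, 0.11 ± 0.23, or 0.27 after rescaling, at levels of 0.613 to 1.68 TPM.

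With all libraries kept, 0 members were called at 45 hpf before rescaling and 0 after it. In TPM as deposited, the count changed most when mutant replicate 1 was left out. The summed collagens of that library lay at the lower edge of the wild-type range as deposited and below it after rescaling. Without that library 17 members were called lower and 0 higher, but 29.7% of all tested genes were then called lower too. Among the 17 were 4 type IV chains (col4a1, col4a2, col4a5 and col4a6), the skin anchor genes col7a1 and col17a1a, and the fibrillar genes col2a1b, col5a1, col5a2a, col5a3b and col11a1b. In that fit col4a1, col4a2 and col8a1a, also among the 17, reached 1 TPM in the wild types only. They passed the filter through the group where they were higher, so their place in the count was tied to the direction of the difference. Without wild-type replicate 3 the count was 1, col8a1a, which reached 1 TPM only in wild types at 45 hpf. The share of all genes called in that fit is not given here. Without any other library the count was 0.

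**Figure D4:**
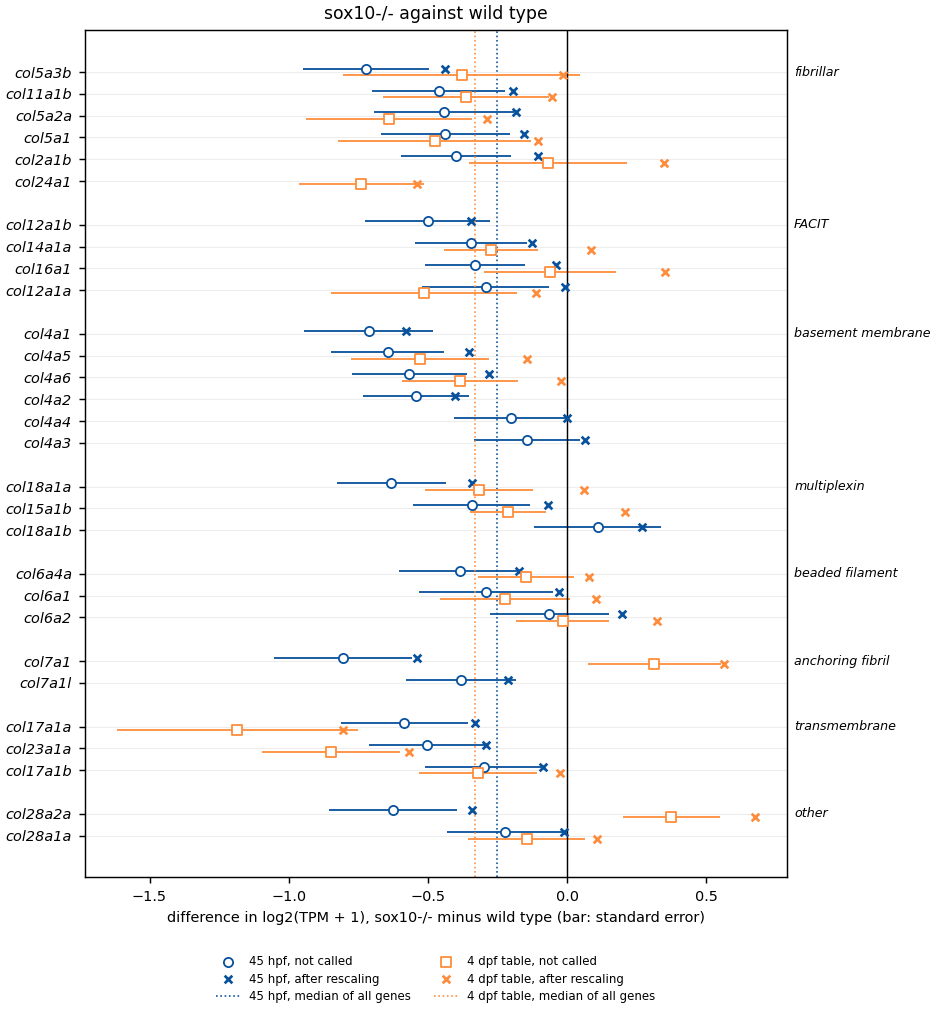
Difference in log2(TPM + 1) between sox10 mutants and wild types for each tested collagen gene, with its standard error, at 45 hpf (circles) and in the 4 dpf table (squares), and as crosses after median-of-ratios rescaling. Dotted lines mark the medians of all tested genes at -0.25 and -0.33. No symbol is filled because 0 members passed the threshold, and in the 4 dpf table only col7a1 and col28a2a lie to the right of 0 before rescaling.

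For the 4 dpf table, 22 members were tested and 0 passed in either direction, although 18.8% of all 17291 tested genes were called lower and 1.56% higher. An unadjusted P under 0.05 was reached by 3 lower and 0 higher members, where 38.2% of all tested genes were lower. The members differed more between replicates than genes at large: their median standard error was 0.235, against 0.199 over all tested genes. Their median difference was -0.32, close to the -0.33 of all genes, and after rescaling it was 0.02, with 11 of 22 members below 0. The mutants lay entirely under the wild types in 4 of the 22, against 42.8% of all tested genes. They lay entirely above the wild types in col28a2a alone, and the share of all genes that did so was not computed.

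The 3 members with an unadjusted P under 0.05, again singled out after their values were seen, were the transmembrane genes col17a1a and col23a1a and the fibrillar gene col24a1. For col17a1a mutants were at 2.48, 11.1 and 7.36 TPM and wild types at 15.6, 12.0 and 18.2 TPM. The groups did not overlap, but mutants spread over a wide range, and the difference of -1.19 ± 0.43 did not pass (limma adjusted P = 0.082). For col23a1a mutants were at 0.752, 1.77 and 1.36 TPM and wild types at 3.65, 2.08 and 3.66 TPM, a difference of -0.85 ± 0.25 (adjusted P = 0.052). For col24a1 mutants were at 0.368, 0.894 and 0.387 TPM and wild types at 1.33, 1.20 and 2.26 TPM, a difference of -0.74 ± 0.22 (adjusted P = 0.055). After rescaling these differences were -0.81, -0.57 and -0.54, so they lay below the shift of all genes. In the 4 dpf table col24a1 reached 1 TPM in the wild types only, so it passed the filter through the group where it was higher. Its place among the tested genes, and in the counts of lower members, was thus tied to the direction of the difference.

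These near calls also depended on single libraries. Mutant replicate 2 had summed collagens inside the wild-type range as deposited and above it after rescaling. Without that library 6 members were called lower (col12a1a, col17a1a, col23a1a, col24a1, col4a5 and col5a1), where 31.7% of all tested genes were. Without wild-type replicate 2 the count was 3 (col23a1a, col24a1 and col8a1a), where 24.8% were. Of these col24a1 and col8a1a reached 1 TPM only in the wild types of that table. When the spread was estimated from all 12 libraries together, col17a1a (adjusted P = 0.028) and col23a1a (adjusted P = 0.016) were called lower, where 30.0% of all genes were.

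On the other side of 0 stood col28a2a and col7a1, the genes with the largest falls with stage in wild types. The same wild-type libraries enter that fall, both genotype differences and the interaction. High earlier and low later wild-type values therefore shift these differences by themselves, and the link to the fall is no separate evidence. The col28a2a gene was at 2.48, 2.21 and 3.32 TPM in mutants against 1.71, 2.05 and 1.68 TPM in wild types of the 4 dpf table, a difference of 0.37 ± 0.17 (adjusted P = 0.14), or 0.68 after rescaling. The col7a1 gene was at 1.099, 2.73 and 1.69 TPM against 1.35, 0.953 and 1.39 TPM, a difference of 0.31 ± 0.24 with overlapping groups, or 0.56 after rescaling. At 45 hpf their differences, given above, were -0.63 and -0.80, and neither passed. In the model of all 12 libraries, the genotype difference in the 4 dpf table exceeded that at 45 hpf by 1.00 ± 0.30 for col28a2a (interaction, limma adjusted P = 0.18) and by 1.12 ± 0.36 for col7a1 (adjusted P = 0.20). After rescaling the adjusted P were 0.071 and 0.059. None of 23 members tested passed for the interaction, where 0.264% of all genes did. An unadjusted P under 0.05 was reached by 2 members with a positive interaction and 0 with a negative one. Of all tested genes 5.99% and 9.06% did so. For col17a1a the interaction was -0.60 ± 0.51 (adjusted P = 0.60), so a difference between genotypes in its rise was not detectable.

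Rescaling turned the sign of the difference in 9 of the 22 members tested in the 4 dpf table, and of 3 of 28 at 45 hpf. In the 4 dpf table the difference of col2a1b was -0.07 ± 0.28, that of col16a1 -0.06 ± 0.24, that of col6a2 -0.02 ± 0.17 and that of col15a1b -0.21 ± 0.14, and after rescaling all 4 were positive, between 0.21 and 0.35. For col15a1b mutants were at 17.5, 19.8 and 21.6 TPM, all below the wild types at 22.5, 22.999 and 23.02 TPM. The type IV genes col4a5 and col4a6 had differences of -0.53 ± 0.25 and -0.38 ± 0.21, and col5a2a one of -0.64 ± 0.30, which after rescaling were -0.15, -0.024 and -0.29. The difference of col18a1a was -0.32 ± 0.19 and turned to 0.06 after rescaling.

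A single genotype difference common to both tables, with stage as a factor, was fitted after the data had been examined. In it 5 of 23 members were called lower and 0 higher, where 32.6% of all 17403 tested genes were called lower. They were col17a1a at -0.89 ± 0.26, col23a1a at -0.68 ± 0.16, col4a5 at -0.59 ± 0.16, col4a6 at -0.48 ± 0.15 and col18a1a at -0.47 ± 0.14, with limma adjusted P between 0.019 and 0.029. After rescaling only col23a1a, a transmembrane collagen shed from the cell surface, was still called (adjusted P = 0.029, difference -0.40), where 11.1% of all genes were.

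Shares within the collagens do not depend on the scaling of a library. Basement membrane chains made up 18.6%, 18.6% and 19.9% of the summed TPM of the 39 members in wild types at 45 hpf and 17.2%, 17.8% and 17.8% in mutants. In the 4 dpf table they made up 10.1%, 10.2% and 10.4% in wild types and 9.34%, 8.89% and 9.43% in mutants. The mutant shares lay below the wild-type shares in each table. Transmembrane chains, mostly col17a1a, made up 12.01%, 12.1% and 14.04% in the later wild types but 5.001%, 8.88% and 8.96% in the later mutants, without overlap, while at 45 hpf they made up 3.29% to 3.77% and 3.12% to 3.39%. The FACIT and beaded filament shares were higher in mutants at 45 hpf, at 17.7% to 18.8% against 15.95% to 16.6% and at 6.12% to 6.46% against 4.83% to 5.50%, and overlapped later. Shares add up to a fixed total, so a share also rises when other classes fall. The summed TPM of these classes overlapped between genotypes at 45 hpf, before and after rescaling. Multiplexin, short-chain network and other shares overlapped at 45 hpf. Anchoring fibril shares overlapped at 45 hpf, at 2.43% to 3.15% in mutants against 3.13% to 3.65%, and were higher in mutants later, at 1.55% to 2.103% against 0.978% to 1.12% later. These shares are a description and were not tested. Fibrillar chains made up 33.6% to 36.6% in wild types and 34.2% to 37.7% in mutants at 45 hpf, with overlap.

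Ratios between chains of one trimer or between paralogs are also free of library scaling. Of the 20 pairs chosen, those with both genes at 1 TPM in at least 3 libraries gave 13 ratios over the tables, each compared between genotypes by a two-sided exact permutation test of 3 against 3 libraries, which cannot give a p below 0.1. None passed after adjustment over the 13 (lowest adjusted p 0.325). The ratio of col4a5 to col4a6 was nearly constant, at 1.63, 1.47 and 1.66 in wild types and 1.52, 1.54 and 1.47 in mutants at 45 hpf. It was 1.62, 1.45 and 1.67 against 1.32, 1.47 and 1.52 in the 4 dpf table, although both genes had fallen more than 3-fold.

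The ratio of col17a1a to col17a1b was 2.62, 2.298 and 2.93 in wild types and 2.08, 2.39 and 2.04 in mutants at 45 hpf (exact permutation p = 0.2). In the 4 dpf table it was 5.78, 5.07 and 6.13 in wild types and 2.03, 4.88 and 2.97 in mutants, a log2 difference of -0.87 (exact permutation p = 0.1, the smallest possible, adjusted p 0.325). All 3 mutant ratios were below all wild-type ratios there, and mutant replicate 2 came close to them. At 45 hpf the ratio of col18a1a to col18a1b was 39.8, 16.8 and 25.4 in wild types and 12.8, 12.4 and 16.7 in mutants, that of col12a1a to col12a1b was 11.4, 11.0 and 14.4 against 14.5, 19.7 and 22.5, and that of col6a1 to col6a2 was 1.14, 1.32 and 1.14 against 1.08, 1.02 and 0.909, each without overlap (exact permutation p = 0.1). The denominators col18a1b and col12a1b were under 3 TPM in all of these libraries.

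**Figure D5:**
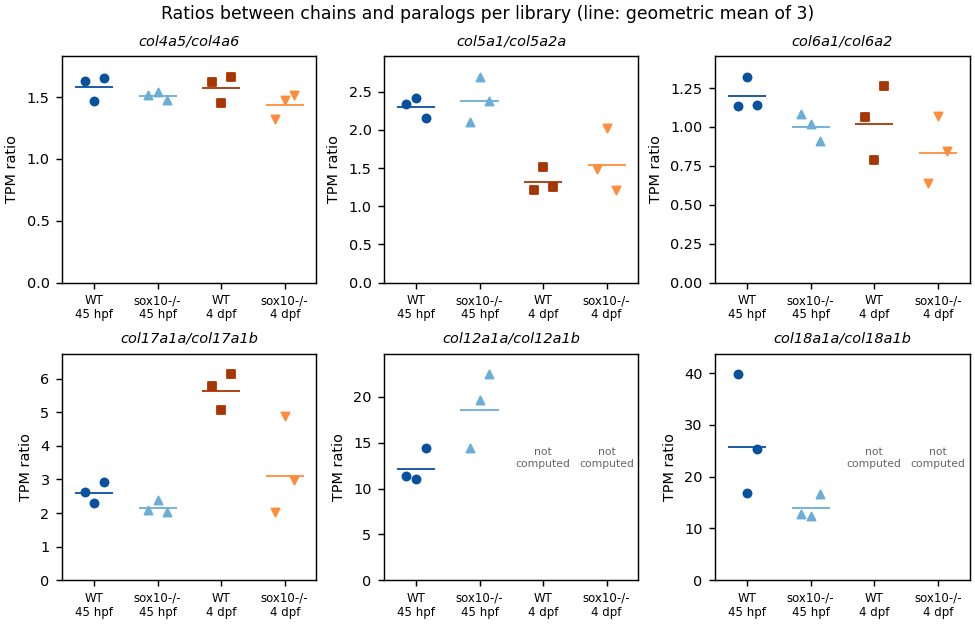
TPM ratio of 6 pairs of chains or paralogs in each library, from 0, with a line at the geometric mean of 3 libraries. The ratio of col4a5 to col4a6 stays between 1.32 and 1.67 throughout, while that of col17a1a to col17a1b is above 5 only in wild types of the 4 dpf table; pairs under 1 TPM in the 4 dpf table were not computed.

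Genes that make, join and bind collagen were counted from 5 lists. The list of folding and secretion genes holds the hydroxylases, chaperones and export factors that act on procollagen in the endoplasmic reticulum. In wild types 20 of its 24 tested genes fell between 45 hpf and the 4 dpf table and 0 rose, where 39.6% and 28.9% of all tested genes did, with a median change of -0.90, close to the -0.93 of the collagens themselves. The collagen chaperone gene serpinh1b (Hsp47) fell by 2.70 and the prolyl 3-hydroxylase gene p3h1 by 2.65. In all later wild types p3h1 and p3h3, which was also called lower, were under 1 TPM. They passed the filter only through the 45 hpf libraries, where they were higher, so their place in the count was tied to the direction of the change. In mutants 17 of 23 fell, where 38.8% of all tested genes did. In the genotype comparison none of 24 was called at 45 hpf, and 3 of 22 were called lower in the 4 dpf table, where 18.8% of all tested genes were: p4ha1a, a prolyl 4-hydroxylase subunit, at -1.253, the collagen galactosyltransferase gene colgalt1b at -1.04, and sec23a of the export coat at -0.66. None of the 3 passed after rescaling.

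Of the 13 tested basement membrane partners, which are laminins, nidogens, perlecan and agrin, 6 fell with stage in wild types and 0 rose, where 39.6% of all tested genes fell. The nidogen gene nid2a fell by 2.32 and the laminin chain lama1 by 2.04. None was called between genotypes in either table, and the median difference was -0.53 at 45 hpf and -0.59 in the 4 dpf table. In the common fit 11 of 13 were called lower, led by the laminin chain lamc1 at -1.05 and nid1a at -0.91, where 32.6% of all tested genes were. After rescaling 4 were called lower and 1, the agrin gene agrn, higher at 0.52 (limma adjusted P = 0.039), where 11.1% of all tested genes were lower and 12.8% higher. By the same fit 10 of 24 folding and secretion genes were lower, 2 of 12 processing genes, 2 of 7 receptors and 3 of 7 turnover genes. After rescaling 2, 0, 1 and 0 of these lists were lower, and p4ha1b of the folding list and loxl3b of the processing list were higher, at 0.73 and 1.22. For loxl3b the genotypes overlapped at 45 hpf, with mutants at 12.4, 8.68 and 8.92 TPM and wild types at 10.7, 10.2 and 7.89 TPM. In the 4 dpf table mutants were at 14.5, 15.8 and 62.3 TPM and wild types at 7.37, 9.16 and 5.78 TPM. The highest of these values came from a single library, mutant replicate 3.

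Processing and crosslinking genes were divided with stage, with 4 of 14 tested lower and 4 higher in wild types. Of all tested genes 39.6% fell and 28.9% rose, so the counts of this list were not above those shares. The receptor and turnover counts below stand beside the same shares. The transglutaminase tgm2a fell by 2.05 and the lysyl oxidase relative loxl2b by 1.55, whereas the procollagen C-proteinase gene bmp1b rose by 1.20 and its enhancer pcolce2b by 1.04. Among the rises, bmp1b and loxa were under 1 TPM in all wild types at 45 hpf. They passed the filter only through the later libraries, where they were higher, so their place in the count was tied to the direction of the change. Of 10 tested collagen receptors 5 fell, with the integrin β1 genes itgb1b at -2.80 and itgb1a at -0.96, and 0 rose. Another of these falls, that of ddr2l, was tied to the filter in the same way, because ddr2l was under 1 TPM in all later wild types. Of 7 tested turnover genes the gelatinase gene mmp2 fell by 1.11 and mmp14b, which activates it, by 0.65, while mmp9 rose by 0.86 and the inhibitor gene timp2a by 2.15. Between genotypes timp2a was called lower in the 4 dpf table at -0.69, where 18.8% of all tested genes were, and it did not pass after rescaling. No gene of the processing or receptor lists was called in either table.

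Summed levels of cell type markers are given for the same groups. The summed level of 6 fibroblast and fin mesenchyme genes (pdgfra, twist1a, dcn, lum, dpt and postnb) was 186 to 236 TPM in wild types and 94.4 to 172 TPM in mutants at 45 hpf, and 56.4 to 89.3 TPM against 19.5 to 78.7 TPM in the 4 dpf table. That of 4 notochord genes was 56.5 to 83.2 TPM against 27.2 to 43.5 TPM at 45 hpf and 53.2 to 97.9 TPM against 37.5 to 90.2 TPM later. That of 5 epidermal genes was 3018 to 3851 TPM against 2378 to 3533 TPM, and then 1624 to 2717 TPM against 897 to 2588 TPM. No marker of fast muscle, epidermis, endothelium, fibroblasts, notochord, pigment cells or blood was at 0 in all libraries of a group. The fast muscle sum spread from 4014 to 33448 TPM among the 3 mutant libraries of the 4 dpf table. Mutant and wild-type sums of fibroblast and notochord genes did not overlap at 45 hpf and did later, and those of epidermal genes overlapped in both tables. At 45 hpf the mutants also lay entirely under the wild types in 23.7% of all tested genes. The marker sums are given as deposited and were not rescaled. The part of these markers in the collagen results was not tested.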

How the data were processed

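Per the labels, RNA of whole-body pools was poly-A selected and made into stranded libraries. The authors trimmed paired reads (Trimmomatic 0.39) and quantified them with kallisto, and the deposited values are TPM per gene and library. GRCz11 is named in the submitters' processing notes. The kallisto version, its strand setting, the transcript release and how transcripts were combined into genes are not given in the sources used here. The tables used hold no counts, so tests for counts were not used.

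Lines that repeat a gene (315) were dropped. A gene was tested if 3 of 6 libraries (6 of 12 in joint fits) reached 1 TPM, and the test was made on log2(TPM + 1) with limma 3.58.1 in R 4.3.3 (lmFit, eBayes with a trend). Benjamini-Hochberg adjustment ran over all tested genes, and a gene was called where the adjusted P did not exceed 0.05 and the change was 25% or more. Fold changes on this scale understate the change of low genes. Ratios used log2 of TPM + 0.1 in each term and exact permutation tests (scipy 1.17.1). The limma step was tested on simulated data. Members, lists and pairs were chosen with earlier results of these data known. Genes named were all called members, or the 6 largest falls and rises where over 12 were called, the 3 most abundant members of each class and up to 2 called genes of each list in each direction per comparison; others are stated as chosen after their values were seen. RefSeq assembly GRCz12tu differs from the build used, so it served only for neighbours (39 of 39 members matched) and no coordinates are given.

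Other settings tried were median-of-ratios rescaling, a pseudocount of 0.1, the filter dropped or set to a mean of 5 TPM, the replicate number as a block and leaving out each library. Fits of all 12 libraries with a single spread, and of a genotype difference common to both tables, were added after the data were examined. In the header of the 4 dpf table the last 4 library names are joined by spaces, and they were read in the order written.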

Additional observations from a re-analysis of the deposited data

How the results depend on the processing

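With 3 libraries per group, calls between genotypes turned on single libraries. The count of members lower in mutants ranged from 0 to 17 at 45 hpf and from 0 to 6 in the 4 dpf table when each library was left out in turn, and was 2 in the 4 dpf table with a spread from 12 libraries; counts of members higher, and of members with an interaction, were 0 under every alternative. With stage in wild types, the count ranged from 19 to 22 lower and from 2 to 4 higher when each library was left out, was 13 lower with a mean of at least 5 TPM (fewer genes tested), and in mutants was 1 higher. The common genotype difference gave 1 member lower after rescaling. The replicate number is not a stated pairing. For each gene the deviation of a library from its group mean was taken. Between same-numbered wild-type and mutant libraries these deviations correlated at -0.31 to -0.01 at 45 hpf and -0.61 to -0.15 in the 4 dpf table. With the replicate block 0 members were called between genotypes, 20 fell and 2 rose with stage, and 4 of 5 were called in the common fit. Over all genes the calls lower ranged from 33 to 5152 at 45 hpf and from 4 to 5793 in the 4 dpf table when each library was left out, against 85 and 3249, and were 2 in the latter with the replicate block. Rescaling turned the differences of 3 members at 45 hpf, col6a2 to 0.20, col4a3 to 0.064 and col4a4 to 0.00085, and of 9 in the 4 dpf table, among them col18a1a to 0.061, col2a1b to 0.35, col16a1 to 0.35, col15a1b to 0.21 and col6a2 to 0.32, and with stage that of col17a1b to 0.076; the cause was not tested. Leaving out single libraries also turned small differences, which ranged from -0.19 to 0.11 for col6a2 and from -0.078 to 0.29 for col18a1b at 45 hpf, from -0.32 to 0.14 for col2a1b, -0.28 to 0.17 for col16a1 and -0.12 to 0.087 for col6a2 in the 4 dpf table, and from -0.58 to 0.18 for col8a1a, -0.19 to 0.11 for col23a1a and -0.16 to 0.10 for col17a1b with stage. The 13 ratios moved by less than their spread without the offset and with each library left out. The tables hold no read numbers, and counting error was not set apart.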

Other observations

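Genes whose deposited name is a collagen α chain, but whose symbol has another form, were outside the rule. There were 7 of them, identified by LOC symbols. The type XX-like gene LOC101884357 was listed at 7.35, 7.09 and 7.25 TPM in wild types and 6.17, 5.54 and 4.36 TPM in mutants at 45 hpf, and at 3.94, 3.49 and 3.07 TPM against 2.70, 3.15 and 3.58 TPM in the 4 dpf table. The gene named type VI α6, LOC100535278, was listed at 0.559, 0.286 and 0.233 TPM in wild types and 0.410, 0.395 and 0.169 TPM in mutants at 45 hpf. In the 4 dpf table it was listed at 9.38, 5.11 and 6.39 TPM against 3.87, 9.94 and 8.69 TPM, so that every later library was above every earlier one, whereas all 3 type VI members with a regular symbol were lower there. The type XXIII-like gene LOC101886266 stayed between 3.00 and 5.89 TPM throughout, and the remaining 4 did not reach 0.4 TPM in any library.

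Of the 11 bone and cartilage collagens that the rule left out, 10 were tested. All 10 were called lower in the 4 dpf table than at 45 hpf in wild types and 8 in mutants, where 39.6% and 38.8% of all tested genes were. Between genotypes 0 were called in either table by limma on log2(TPM + 1). The paper, with a test for counts (DESeq2) at 4 dpf, reports col1a1a, col1a1b and col1a2 as significantly reduced in mutants. The outcome for these genes thus differs from the paper's, and the test and the scale of the values differ too. In the 4 dpf table the median difference of the 10 tested genes was -0.10. That median also covers other genes, so it cannot be set against the paper's values for col1a1a, col1a1b and col1a2. Their own differences are not given here. The stage of that table is uncertain, so it may not hold the values behind the paper's result. Why the outcomes differ was not tested. At 45 hpf the median difference of the 10 tested genes between mutants and wild types was -0.82 on the log2 scale. It was -0.42 for the members and -0.25 for all tested genes. Summed over the 11 genes, mutants were at 379 to 702 TPM and wild types at 884 to 1004 TPM at 45 hpf, without overlap, and at 144 to 349.6 TPM against 159 to 279 TPM later.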
